A study of Homo sapiens with 6 samples.

Results

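H4C3, H4C8, H4C14 and H4C15 are 4 of the human genes that encode histone H4, and the footprints of small ribosomal subunits on their mRNAs were described here area by area. The genes were given by name and found by their Ensembl identifiers in a table of 9675 genes, which held 15 H4 genes in all. They had been proposed as mRNAs with short leaders and many start codon counts, so those counts are a description and not a finding. Cells were HEK293T, a human embryonic kidney line, fixed with 0.3% formaldehyde for 5 min, and RNA protected from RNase I was sequenced. The 40S group was an unselected library of small subunits (40S 1), and the eIF3b-bound 40S group, here called the eIF3b-selected library, was made from small subunits pulled down with an antibody to eIF3b, a core subunit of initiation factor 3. Both groups had the same fixation, no other treatment and 1 library with counts per gene. The series has 6 libraries, with 2 of 40S and 2 of 80S (whole ribosomes), but gene counts of 40S 2, 80S and mRNA were not used here. There was no replicate, so no test across samples was possible, and intervals are exact Clopper-Pearson intervals at 95% that cover counting error only.

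Histone H4 is a core component of the nucleosome. Most H4 genes are replication-dependent: their mRNAs are made in S phase, have no introns and end in a conserved stem-loop bound by SLBP instead of a poly(A) tail. During initiation the 40S subunit, carrying eIF3 and other factors, is loaded near the cap and scans the leader until it meets the start codon, where the large subunit joins. Several gene copies supply the same protein and some are near-identical in sequence, so a footprint read can match more than 1 copy.

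The table counted 947733 footprints in the eIF3b-selected library and 834172 in 40S 1. Of the 15 H4 genes 13 had at least 20 counts in both libraries together, and these included all 4 members. Of 6 markers fixed for HEK293T cells 3 were in the table, with KRT8 at 267 and 100 counts, NEFM at 15 and 50 and SOX11 at 4 and 12 in the eIF3b-bound and 40S 1 libraries. Of 10 markers fixed for other cell types 3 were in the table, and CD3E and HBB were at 0 in both libraries while MYH6 had 5 and 2 counts.

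Start codon surroundings are shown first because the start codon area held many of the members' counts and because some copies share its sequence. H4C3 lies on chromosome 6 from 26103933 to 26104337 and H4C8 on chromosome 6 from 26285126 to 26285534 in GRCh38. H4C14 lies on chromosome 1 from 149832657 to 149833052. H4C15, on chromosome 1 from 149844488 to 149861240, is annotated with 9 RefSeq transcripts over 16753 nt, while each of the other 3 members has 1 transcript of 396 to 409 nt. Sequences are from RefSeq, build GRCh38.p14, which gave a window for 13 of the 15 H4 genes. Each run below is 30 nt on the strand of the gene, with the start codon in capitals and 15 nt of leader before it.

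H4C8, chr6:26285485-26285514, minus strand: agaagttgcttagtcATGtctggccgtggt

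H4C14, chr1:149832670-149832699, plus strand: cgggctccagcggtcATGtccggcagagga

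H4C15, chr1:149861117-149861146, minus strand: cgggctccagcggtcATGtccggcagagga

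H4C11, chr6:27824110-27824139, plus strand: ctcctcttgctcgtcATGtctggccgcggc

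H4C12, chr6:27831513-27831542, minus strand: ctcctcttgctcgtcATGtctggccgcggc

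H4C11 and H4C12 are shown as a second pair of copies. From the transcript start of the RefSeq window to the first ATG, the leader measured 35 nt in H4C8 and 28 nt in both H4C14 and H4C15. It measured 33 nt in both H4C11 and H4C12. For H4C15 the transcript start used is not the outer end of the gene, which is annotated to 149861240 on the minus strand. Leaders of its other transcripts were not measured. The base 3 nt before the start codon was G and the base after it was T in all 5. H4C14 and H4C15 were identical over all 300 bases of the RefSeq window, which runs from 250 nt before the transcript start to 50 nt after it. H4C11 and H4C12 were identical over the 50 transcribed bases and at 295 of the 300. No source used here gives the borders of the counted areas, so leader lengths and leader counts cannot be matched exactly.

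All 4 members had few or no counts in the leader and most of their counts in the start codon and coding sequence areas. H4C3 had 0 leader counts among 2773 footprints in the eIF3b-selected library, which allows a share of up to 0.108%, and 0 among 2422 in 40S 1, which allows up to 0.124%. These limits are 3 counts of the total, and the upper bounds of the exact intervals were wider, 0.133% and 0.152%. Such limits hold only if a leader area was counted for the gene, which is not known here. H4C8 likewise had 0 of 2210 and 0 of 942. H4C14 had 33 leader counts of 4081 in the eIF3b-selected library and 3 of 2398 in 40S 1. H4C15 had 558 of 9994 and 87 of 5165, a share of 5.58% (interval 5.14 to 6.05%) and 1.68% (1.35 to 2.07%). The median was taken over 3117 genes that had a minimum of 20 counts per library. The median gene had 46.9% of its counts in the leader in the eIF3b-selected library and 9.52% in 40S 1. All 4 members lay below it in both libraries, as their proposal as mRNAs with short leaders implied. An empty leader beside a filled start codon area was uncommon but not limited to H4. Among 239 genes with 50 or more start codon counts per library, 12 had no leader count in either, which is 5.02%. Histones made up 19 of the 239 genes and 7 of these 12, among them H4C3, H4C8 and H4C11. H4C3 and H4C8 had been proposed for short leaders and start codon counts, so their place among the 12 is no finding. The genes that are not histones were POLR2L, NPM3, COA3, TIMM17B and PSMB7, named after their values were seen.

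**Figure D1:**
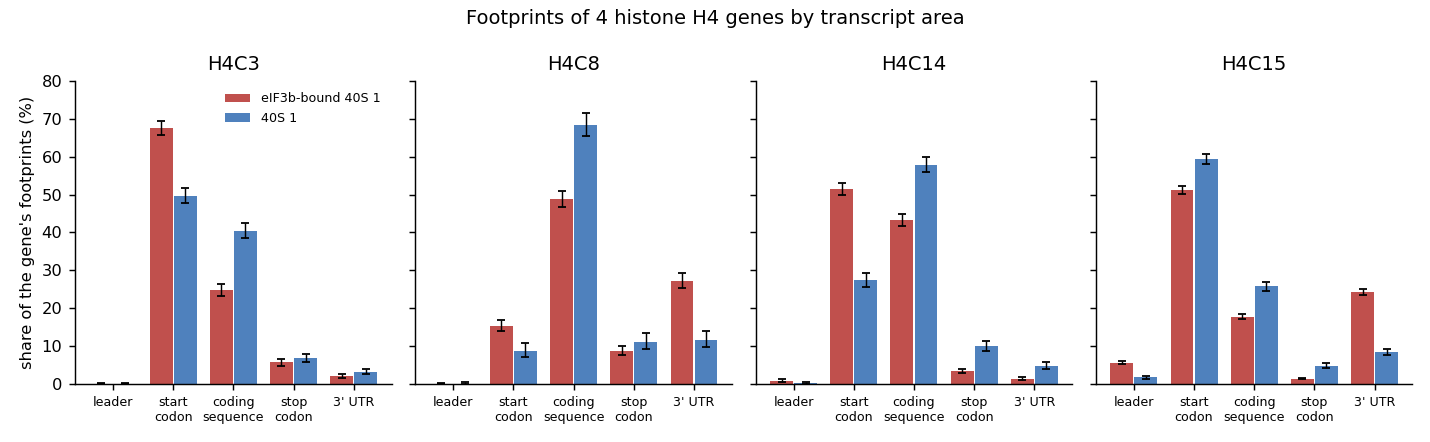
Share of each gene's footprints in 5 transcript areas (y axis, percent) for the 4 H4 genes, in the eIF3b-selected library (red) and 40S 1 (blue), with exact 95% counting intervals and 1 library per group. H4C3, H4C14 and H4C15 have over 50% of their eIF3b-bound footprints at the start codon and H4C8 has 15.3%, while H4C8 and H4C15 have 27.2% and 24.2% in the 3′ UTR.

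By start codon counts 3 of the 4 members ranked among the first 11 genes in both libraries. H4C15 had 5113 start codon counts in the eIF3b-selected library and 3073 in 40S 1 and ranked 1st of 9675 genes in both. H4C14 had 2097 and 655, ranks 7 and 11. H4C3 had 1874 and 1204, ranks 9 and 3. H4C8 was lower, with 338 and 82, ranks 105 and 177. Together the 4 genes held 5.54% of all start codon counts of the eIF3b-selected library (5.43 to 5.65%), and their part in 40S 1 was 7.06% (6.87 to 7.25%). They also held 11.5% (10.6 to 12.4%) and 6.75% (6.29 to 7.23%) of all stop codon counts. Over all areas their part was 2.01% and 1.31%. These are raw counts that were not scaled for mRNA abundance.

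As a share of each gene's own footprints, the start codon area was higher in the eIF3b-selected library for 3 of the 4 members and lower for H4C15. A higher share was common, found in 59.9% of the 3117 genes, so 3 of 4 is near the background. H4C3 had 67.6% of its footprints at the start codon in the eIF3b-selected library (65.8 to 69.3%) and 49.7% in 40S 1 (47.7 to 51.7%). H4C14 had 51.4% (49.8 to 52.9%) and 27.3% (25.5 to 29.1%), the widest gap of the 4 at 24.1 percentage points. H4C8 had 15.3% (13.8 to 16.9%) and 8.70% (6.98 to 10.7%). H4C15 had 51.2% (50.2 to 52.1%) in the eIF3b-selected library and 59.5% (58.1 to 60.8%) in 40S 1, a difference of -8.34 points, and 5.33% of genes had a lower difference. That sign depended on the areas counted. Without stop codon and 3′ UTR counts, over leader, start codon and coding sequence alone, the difference was 0.245 points, for which no interval was computed. Over start codon and coding sequence alone it was 4.46 points. The median gene had 8.51% at the start codon in the eIF3b-selected library and 4.29% in 40S 1, so all 4 members lay above it in both libraries, as the proposal of these genes implied. The intervals of the libraries did not overlap for any of the 4 genes.

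**Figure D2:**
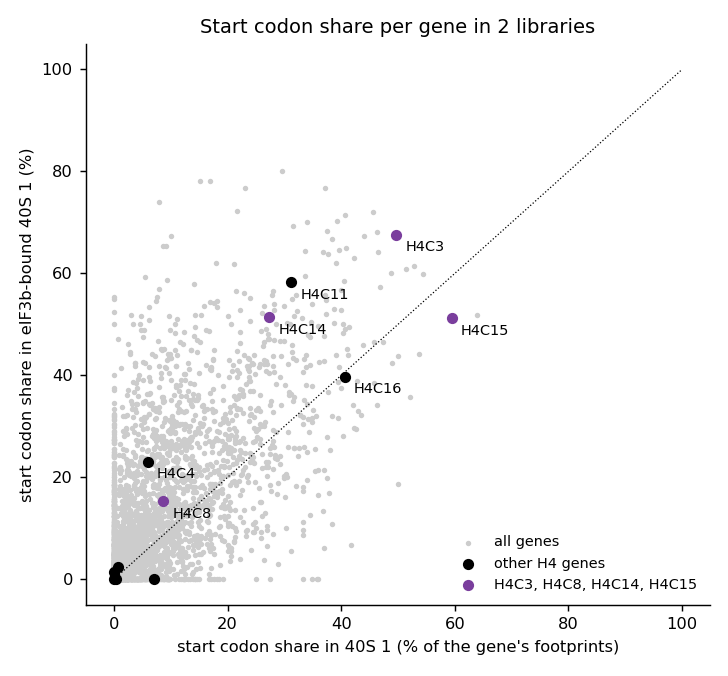
Start codon share per gene in 40S 1 (x axis, percent of the gene's footprints) and in the eIF3b-selected library (y axis, percent) for the 3117 genes above the minimum of 20 counts, 1 library per axis, with the dotted line marking equal shares. H4C3, H4C8 and H4C14 (purple) lie above the line and H4C15 below it at 59.5% and 51.2%, and the other H4 genes (black) run from 0 to 58.3% on the y axis.

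Set against the coding sequence alone, start codon counts were higher in the eIF3b-selected library for 4 of 4 members, as for 82.5% of 1782 genes with 20 or more such counts per library, and by less than in the median gene. H4C3 had 2.73 start codon counts per coding sequence count in the eIF3b-selected library and 1.23 in 40S 1, a quotient of 2.22. The quotient was 2.46 in H4C8 (0.313 against 0.127) and 2.52 in H4C14 (1.19 against 0.472). H4C15 had the smallest, 1.25, from 2.88 against 2.31. The median gene had a quotient of 3.19, with 0.5 added to each count, and the share of genes with a smaller one ran from 19.2% for H4C15 to 41.0% for H4C14. Start codon counts made up 74.3% of start codon and coding sequence counts in H4C15 in the eIF3b-selected library (73.2 to 75.3%) and 69.8% in 40S 1 (68.4 to 71.1%). The median over the same genes was 44.1% and 18.9%, so H4C8, at 23.8% and 11.3%, lay below the median gene in both.

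Coding sequence shares were lower in the eIF3b-selected library for 4 of 4 members, as for 73% of all genes. The shares were 24.7% in the eIF3b-selected library and 40.4% in 40S 1 for H4C3, 48.9% and 68.5% for H4C8, 43.2% and 57.9% for H4C14, and 17.7% and 25.8% for H4C15. Stop codon shares were lower for 4 of 4 as well, against 41.5% of all genes, of which many had no stop codon count. Of the 1500 genes with a stop codon count in either library 86.3% were lower, so 4 of 4 is near the background. For H4C14 the stop codon share was 3.33% (2.80 to 3.93%) in the eIF3b-selected library and 9.92% (8.76 to 11.2%) in 40S 1, and for H4C15 it was 1.35% (1.13 to 1.60%) and 4.74% (4.18 to 5.36%). For H4C8 it was 8.60% and 11.1%, a difference of -2.55 points with a 95% Newcombe interval of -4.98 to -0.32. For H4C3 it was 5.63% and 6.77%, a difference of -1.15 points whose interval, -2.48 to 0.17, includes 0, so a difference was not detectable at this depth.

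In the 3′ UTR the 4 genes fell into a pair with many counts and a pair with few. H4C15 had 2415 of 9994 footprints there in the eIF3b-selected library and 430 of 5165 in 40S 1, which is 24.2% and 8.33%. Which of its 9 transcripts set the borders of that area is not known here. H4C8 had 602 of 2210 and 110 of 942, which is 27.2% (25.4 to 29.1%) and 11.7% (9.70 to 13.9%). H4C3 had 57 and 75 counts there, and H4C14 had 52 and 113. The share was higher in the eIF3b-selected library for H4C8 and H4C15 only, 2 of the 4 members, while 11.9% of the 3117 genes went that way and the median gene fell from 39.4% in 40S 1 to 11.7%. The difference was 15.8 points in H4C15, and 97.9% of genes had a smaller one. Of the 12 H4 genes above the same minimum 6 had a higher 3′ UTR share in the eIF3b-selected library and 3 a lower one.

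As a ratio between libraries, 3 members lay above the median gene and H4C3 below it, and none was 2-fold or more away from it. The ratio is log2 of CPM (counts scaled to the summed counts of each library) in the eIF3b-selected library over 40S 1, with a prior count of 0.5. The median over 4175 genes with at least 20 counts was 0.25, with quartiles of -0.63 and 0.99. H4C8, with 2210 and 942 counts, had 1.05 (0.94 to 1.16), above the upper quartile, which its interval includes. H4C15 had 0.77 (0.72 to 0.82) and H4C14 0.58 (0.51 to 0.66). H4C3, with 2773 and 2422 counts, had 0.01 (-0.07 to 0.09). Of the members 0 lay 2-fold or more above that median, against 18.2% of all genes, and 0 lay as far below it, against 22.2%. Their median was 0.68, which is 0.43 above the median gene. With 3′ UTR counts left out of genes and totals, it was -0.15, which is 0.30 below the median gene, and all 4 members then lay below it, by 0.10 in H4C8 to 0.84 in H4C3. With rows of any count the median was -0.18, the value that the prior count and library totals give to a row with no count. Such rows were 3381 of the 9675, so that setting cannot show where H4C3 lies among genes with counts.

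Single areas differed more than whole genes. At the start codon, where the median of 1333 areas was 1.22, H4C8 had 1.85 (1.51 to 2.23) and H4C14 1.49 (1.37 to 1.62). H4C15 had 0.55 (0.49 to 0.62) and H4C3 0.45 (0.35 to 0.56), both below the lower quartile of 0.66. Of the members 0 were 2-fold or more above the median start codon area, against 14.6% of all, and 0 were as far below it, against 12.5%. In the coding sequence, where the median of 2734 areas was -0.64, H4C8 had 0.56 (0.42 to 0.70), H4C15 0.23 (0.13 to 0.33), H4C14 0.16 (0.06 to 0.26) and H4C3 -0.70 (-0.84 to -0.55). H4C8 alone was 2-fold or more above that median, against 22.4% of all coding sequences, and 0 members were 2-fold below, against 21.4%. In the 3′ UTR, with a median of -1.53 over 2741 genes, H4C15 had 2.30 (2.16 to 2.46) and H4C8 2.26 (1.97 to 2.57), both 2-fold or more above the median, as were 28.9% of all genes. H4C3 had -0.58 (-1.10 to -0.06) and H4C14 -1.30 (-1.81 to -0.82).

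Stop codon areas of all 4 members and leader areas of 2 were measured. At the stop codon, with a median of -1.30 over only 156 genes, H4C8 had 0.67 (0.32 to 1.03) and H4C3 -0.26 (-0.58 to 0.07). H4C14 had -0.99 (-1.31 to -0.68) and H4C15 -1.04 (-1.36 to -0.74). All 4 lay above that median, though the intervals of H4C14 and H4C15 include it. The share of the 156 genes with a lower ratio ran from 64.1% for H4C15 to 91.7% for H4C8. In the leader, with a median of 2.27 over 2407 genes, H4C14 had 3.07 (1.60 to 5.62) and H4C15 2.49 (2.17 to 2.84). Both values lay above the median, but both intervals include it.

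**Figure D3:**
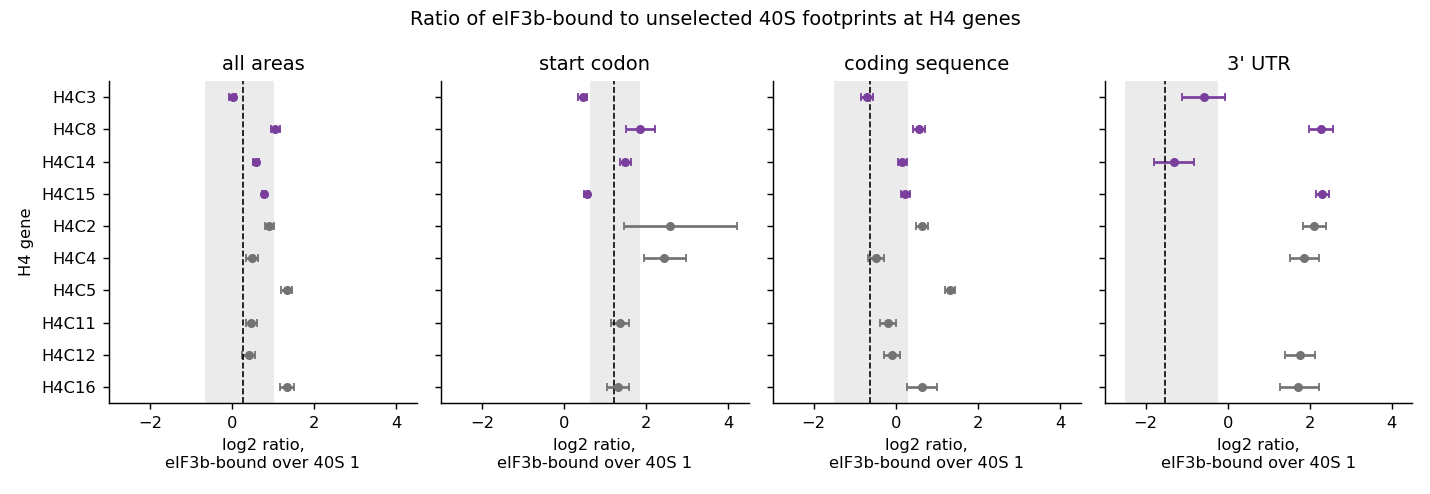
Log2 ratio of CPM, eIF3b-selected library over 40S 1 (x axis), for the 4 members (purple) and 6 other H4 genes (grey) over all areas and in 3 single areas, with exact 95% counting intervals; dashed lines mark the median and grey bands the quartiles over all genes. In the 3′ UTR panel H4C8 and H4C15, at 2.26 and 2.30, lie above the band with H4C2, H4C4, H4C12 and H4C16, and H4C3 and H4C14 lie inside it. H4C5 and H4C11 had too few 3′ UTR counts for a point.

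H4C14 and H4C15, the copies with identical RefSeq windows, had nearly the same counts in some areas and very different ones in others. In the coding sequence H4C14 had 1763 and H4C15 1773 counts in the eIF3b-selected library, and 1389 and 1330 in 40S 1. At the stop codon they had 136 and 135, then 238 and 245. The part of H4C15 in the pair was 50.1% (48.5 to 51.8%) in the coding sequence and 49.8% (43.7 to 55.9%) at the stop codon in the eIF3b-selected library. In 40S 1 it was 48.9% (47.0 to 50.8%) and 50.7% (46.2 to 55.3%). Each of these intervals includes an even split. The intervals take each read as belonging to 1 copy, so they cannot show that the copies were equally occupied. At the start codon H4C15 held 70.9% of the pair (69.9 to 72.0%) in the eIF3b-selected library and 82.4% (81.2 to 83.6%) in 40S 1, although the bases printed above are the same. In the leader it held 94.4% and 96.7%, and in the 3′ UTR 97.9% and 79.2%. Which of the 9 transcripts of H4C15 set the borders of its areas is not known here.

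H4C11 and H4C12 showed an even split in the coding sequence too, with 429 and 468 counts in the eIF3b-selected library and 430 and 441 in 40S 1. Yet H4C11 had all 699 and 239 start codon counts of the pair, and H4C12 had 0. In the 3′ UTR H4C12 had 316 and 82 counts, and H4C11 had 3 and 8. No source used here gives how reads that match several copies were assigned. Its part in these splits, and in every value of a single copy above, was not tested.

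**Figure D4:**
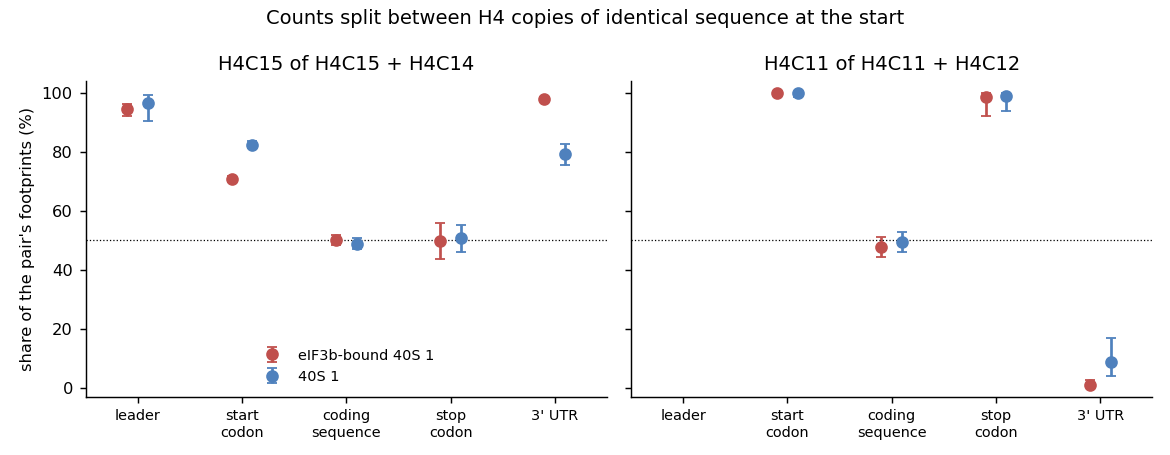
Part of H4C15 in the pair with H4C14 and of H4C11 in the pair with H4C12 (y axis, percent of the pair's footprints) in 5 areas, in the eIF3b-selected library (red) and 40S 1 (blue), with exact 95% counting intervals. Coding sequence points lie at the dotted line of 50% in both pairs, while start codon points lie at 70.9% and 82.4% for H4C15 and at 100% for H4C11.

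Summed over all 15 H4 genes, with each count taken as listed, 10840 of 27372 footprints of the eIF3b-selected library and 5458 of 15089 of 40S 1 lay at the start codon, 39.6% and 36.2%. The 3′ UTR held 4647 and 1088 footprints. The coding sequence took 37.5% and 49.2%, the stop codon 2.97% and 6.53%, and the leader 2.99% and 0.848%. The log2 ratio of the sum was 0.68 (0.65 to 0.70) over all areas, 0.81 (0.76 to 0.85) at the start codon, 0.28 (0.24 to 0.32) in the coding sequence, -0.46 (-0.60 to -0.33) at the stop codon and 1.91 (1.81 to 2.01) in the 3′ UTR. The sum lay above the median gene over all areas (0.25), in the coding sequence (-0.64), at the stop codon (-1.30) and in the 3′ UTR (-1.53), and below it at the start codon (1.22). How reads shared by copies were counted can still enter the sum, and its part was not tested. The start codon difference, 3.43 points, was smaller than in 3 of the single members, and the 3′ UTR was higher in the eIF3b-selected library in the sum as in H4C8 and H4C15.

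The other H4 genes varied as widely. Of the 11 others 9 were measured, with a median ratio of 0.47, and 2 lay 2-fold or more above the gene median and 0 as far below it, against 18.2% and 22.2% of all genes. H4C5, with 2051 and 722 counts, had 1.32, and nearly all of its counts lay in the coding sequence, with 2 and 3 at the start codon. H4C16, which lies on chromosome 12, had 1.34 from 1097 and 381 counts, with 228 and 38 in the leader. H4C2, with 1863 and 877 counts, had 0.90, H4C4 0.47, H4C11 0.47, H4C12 0.40 and H4C1 -0.11. H4C13, with 17 and 6 counts, had 1.24 (-0.09 to 2.95), and H4C9, with 62 and 42, had 0.37 (-0.21 to 0.98). H4C6 and H4C7 had too few counts to be measured. H4C11 was the other copy with most of its eIF3b-bound footprints at the start codon, at 58.3% (55.4 to 61.1%) against 31.2% (28.0 to 34.7%) in 40S 1. For H4C16 the shares were 39.7% and 40.7%, with overlapping intervals.

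Genes with the area profile most like that of a member were in part other histones. Likeness was measured as the mean over both libraries of the share of footprints that would have to move between areas to make the profiles equal, over 2047 genes with 50 or more counts per library. RPL7A, a protein of the large ribosomal subunit, was nearest to H4C3 at 4.28%, with 68.1% and 46.3% at the start codon, and was followed by the histone gene H2BC26 at 9.42% and COX5B, a subunit of cytochrome c oxidase, at 10.3%. H4C14 was nearest to OXA1L, a mitochondrial membrane insertase with only 56 and 77 counts, at 5.18%, then to H4C11 at 7.39% and H2BC5 at 8.11%. H4C8 was nearest to ALYREF, an mRNA export factor, at 12.5%, and then to H2AC17 and to H2AC15, the latter at 13.5%. For H4C15 the nearest gene was farther off, H2BC8 at 13.7%, followed by the complex I subunits NDUFC1 and NDUFB11 at 14.5% and 14.7%. Between members the distance ran from 20.8%, for H4C3 and H4C14, to 47.0%, for H4C8 and H4C15. The same distance between the libraries was 17.9% in H4C3, 19.7% in H4C15, 22.2% in H4C8 and 24.8% in H4C14, and 41.5% in the median gene.

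Other genes of the histone pathway were given by lists. Among 45 other replication-dependent histones with a row, 40 were measured, with a median ratio of 0.38, and 5 lay 2-fold or more above the gene median and 3 as far below it. The shares of all genes, 18.2% above and 22.2% below, stand beside this and the following counts over all areas. Among them H3C14 had 0.99, H3C15 0.82, H2AC6 1.74 and H1-2 0.28. In their 3′ UTR 19 of 24 measured genes were 2-fold or more above the median and 1 as far below, with a median of 1.39, against 28.9% and 23.9% of all genes. The 5 replacement histones, whose genes are expressed outside S phase as well, had a median of 1.27 over all areas and 3 lay 2-fold or more above the gene median. H1-10 had 1949 and 374 counts, and the ratios of others were 1.51 for H2AZ1, 1.27 for H2AX and 0.70 for MACROH2A1. Their leaders were filled, with a median of 63.8% of the eIF3b-bound footprints and 35.8% of those of 40S 1. The median was 0.404% and 0.0626% for the 4 members. It was 0 in both libraries for 37 other replication-dependent histones and for 8 other H4 genes. H4C5, with 2051 and 722 counts, had 0 in the leader, stop codon and 3′ UTR areas of both libraries. Area borders are not known here, so a 0 can also mean that no such area was counted, which was not tested. The 9 measured genes of histone mRNA metabolism had a median of 0.05, with 1 above and 3 below: SLBP, the stem-loop binding protein, had 0.47, LSM10, a subunit of the U7 snRNP, 1.52, UPF1, an RNA helicase of mRNA decay, 0.05, and CPSF2, a subunit of the 3′ end cleavage complex, -0.71. The 6 measured H4 chaperones and related factors had a median of 0.30, with 0 above and 2 below: SSRP1, a subunit of FACT, had 1.11, CHAF1B, a subunit of CAF-1, 0.88, ASF1A 0.58 and HIRA -1.05. Reads of other histone copies can be shared in the same way.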

How the data were processed

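Per the file headers, the deposited table gives raw footprint counts for 5 areas per gene (the 5′ UTR, here called the leader, then start codon, CDS, stop codon and 3′ UTR) in the eIF3b-selected library and 40S 1. Per the submitters' processing notes, the build was GRCh38 and the tools were TopHat2 2.1.0, Bowtie2 2.2.6, Bowtie 1.2.2 and CASAVA 1.8. Their roles, the use of strand, area borders and how reads with several matches were assigned: not given in the sources used here. Of the identifiers 8322 matched a symbol and 1353 did not; 0 columns were left unmapped.

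Ratios, shares and intervals were computed with Python 3.11.15, scipy 1.17.1 and numpy 2.4.6, and TMM and RLE factors with edgeR 4.0.16. Coverage of the ratio intervals was tested on counts simulated with counting error only, as the intervals assume. That test cannot speak to PCR copies, reads shared by gene copies or differences between libraries. Genes or areas were measured where both libraries summed to 20 counts or more. The planned edgeR test of 80S against 40S per gene was not run, since those gene counts were not used here. A share of 0 was given the limit that 3 counts allow. Without molecular identifiers, PCR copies of 1 molecule may be counted more than once. The members and lists were chosen with earlier results of these data known. Named genes were the members, the other measured H4 genes, the 3 nearest profiles per member and up to 4 genes with the most counts per list. The count of empty leaders was chosen after values were seen.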

Additional observations from a re-analysis of the deposited data

How the results depend on the processing

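No paired analysis was possible because gene counts were used for 1 library per group, so the replicate numbers pair nothing and no library could be left out. The median log2 ratio of the 4 members, 0.68, was 0.43 with TMM scaling, 0.42 with RLE scaling, 0.21 with totals from which the 10 genes highest in 40S 1 were removed, 0.43 relative to the median gene (added after the data were seen), and -0.15 without 3′ UTR counts, where H4C14 had -0.081 and H4C15 -0.22. The first 3 of these move every gene alike: the median gene, 0.25, went to -0.00007, -0.00108 and -0.215. The median start codon ratio, 1.02, was 0.77 with TMM and 0.77 with RLE, 0.56 without the 10 genes, where H4C3 had -0.011, and -0.054 when scaled by summed start codon counts, where H4C3 had -0.62 and H4C15 -0.53. These scalings too move every start codon area alike, with the median area going from 1.22 to 0.970, 0.969, 0.755 and 0.144 and the members staying at -0.20 relative to it. The median start codon share difference, 12.2 points, was 15.3 over leader, start codon and coding sequence, 15.3 over start codon and coding sequence (added after the data were seen), and 3.43 with all H4 genes summed into 1. In H4C15 the first 2 turned -8.34 into 0.245 and 4.46 points. A prior count of 2 moved no member beyond its counting interval. A minimum of 50 counts or none left the members' ratios as they were. With none the median was -0.18, the value that the 3381 rows with no count take from the prior count and library totals. The members' distance of 0.86 from it is therefore not a distance from measured genes. A minimum of 50 counts moved the medians of the 5 lists by less than the spread among their genes. Depth limits H4C9 and H4C13, and the leader area of H4C14 with 33 and 3 counts. At the stop codon of H4C3 the interval of the share difference, -2.48 to 0.17 points, included 0.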
